A study of Mus musculus with 2 samples.

Results

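AMP-activated protein kinase (AMPK) and the regulators of mitochondrial biogenesis and shape were examined in liver cells of mice with and without miR-33 in hepatocytes. The 10 genes, out of 32285 listed in each library, were taken by symbol: the AMPK subunits Prkaa1, Prkaa2, Prkab1 and Prkab2, the biogenesis regulators Ppargc1a, Tfam and Nrf1, and the fusion and fission genes Mfn2, Opa1 and Dnm1l. The rule goes by symbol and uses no measured value, although the genes were picked with earlier results of these data known. Of the 10 symbols, 10 matched a single row in both libraries. The data were 2 droplet-based 3' single-cell RNA-seq libraries, in which each captured RNA molecule is counted once by its unique molecular identifier (UMI) and each droplet carries its own barcode. The WT library came from wild-type mice and the HKO library from mice in which an Albumin-Cre transgene, active in hepatocytes, removes miR-33 from a loxP-flanked allele. Both groups were littermates that had been fed CD-HFD, a choline-deficient high-fat diet, for 6 months from 8 weeks of age, were males and were fasted before collection. Whether the WT littermates carried the loxP-flanked allele is not given in the sources used here. Each library pooled 3 livers, and hepatocytes were mixed with sorted non-parenchymal cells in equal parts. With 1 library per genotype there was no spread between animals to compare with, so no test was made and intervals, all at 95%, cover counting error only.

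AMPK is an energy sensor made of a catalytic alpha, a scaffolding beta and a nucleotide-binding gamma subunit. When cellular ATP is short it switches off fatty acid synthesis and favors fatty acid oxidation. PGC-1alpha, the product of Ppargc1a, is a transcriptional coactivator induced in the fasted liver, where it drives gluconeogenesis and oxidative genes. It acts with NRF1, a transcription factor of nuclear genes for mitochondrial proteins, and one of their classical targets is TFAM, which packages mitochondrial DNA and activates its promoters. Mitofusin 2 (Mfn2) and OPA1 fuse the outer and inner mitochondrial membranes, and the dynamin-like GTPase DRP1 (Dnm1l) divides the organelle. The study asked how removal of miR-33, a microRNA whose known targets include Prkaa1 and Ppargc1a, changes these pathways in the diseased liver.

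The microRNA and its matches in these genes are shown first, because the genotype removes this sequence. The mature strands lie on chromosome 15, plus strand, of GRCm38 (RefSeq), at chr15:82198127-82198147 and chr15:82198167-82198188. Capitals mark the seed, bases 2 to 8.
mmu-miR-33-5p: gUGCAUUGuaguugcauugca
mmu-miR-33-3p: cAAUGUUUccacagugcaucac

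In annotated 3'UTRs (GENCODE M21, GRCm38), 4 of the 10 genes held a match to the miR-33-5p seed. The motifs searched, on the transcript strand, were the 8mer CAATGCAA, the 7mer-m8 CAATGCA and the 7mer-A1 AATGCAA. Over 20996 genes with a coding transcript and a 3'UTR, 15.8% held any of the 3, and 2.19% held the 8mer. Capitals mark the match in each 3'UTR stretch below, read 5′ to 3′.
Prkaa1, 8mer, chr15:5181218-5181238, plus strand: atgtaaagggagtCAATGCAA
Ppargc1a, 7mer-m8, chr5:51455735-51455755, minus strand: ttcacccccaggcCAATGCAg
Prkaa2, 7mer-A1, chr4:105032161-105032181, minus strand: acttggactactggAATGCAA
Prkaa2, 7mer-A1, chr4:105030317-105030337, minus strand: atgcttttaaaatgAATGCAA
Prkab2, 7mer-A1, chr3:97670406-97670426, plus strand: atacatggcccagtAATGCAA

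Prkaa1 was therefore the only one of the 10 with the 8mer, in both of its 2 coding transcripts, at base 2299 of a 3'UTR of 2967 bases. Ppargc1a had its match at base 2438 of 3930 in 1 of 2 coding transcripts. The longest 3'UTR searched was that of Prkaa2, with 6218 bases, and longer 3'UTRs hold any given motif more often. Prkab1, Tfam, Nrf1, Mfn2, Dnm1l and Opa1 held none of the 3 motifs. For miR-33-3p (8mer AAACATTA, 7mer-m8 AAACATT, 7mer-A1 AACATTA), which 24.0% of the genes matched, there were matches in Prkaa1, Prkaa2, Mfn2 and Dnm1l. That of Mfn2 lay in 1 of 4 coding transcripts, with a 3'UTR of 421 bases where the longest had 1790. That of Dnm1l lay in 1 of 5, with 322 bases where the longest had 1757. A match is a description of sequence and does not show that the microRNA acts there.

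In GRCm38, Prkaa1 (ENSMUSG00000050697) spans chr15:5143861-5181899 and Prkaa2 (ENSMUSG00000028518) spans chr4:105029874-105109890. The beta subunit genes span chr5:116013586-116024508 (Prkab1) and chr3:97658193-97673812 (Prkab2). Ppargc1a spans chr5:51454250-51567726, Tfam spans chr10:71225464-71238280 and Nrf1 spans chr6:30047988-30153458. Mfn2 spans chr4:147873599-147904704, Dnm1l spans chr16:16312230-16358959 and Opa1 spans chr16:29579334-29654884. Ppargc1a shares its strand with 3 provisional gene models inside it, so its UMIs could be split between them. No other member overlaps an annotated gene on its own strand.

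Depth separated the libraries and bears on every value below. There were 130451427 UMIs over 30078 barcodes in WT and 52563185 UMIs over 20000 barcodes in HKO, and the number of barcodes they share was not counted because the WT barcode sequences were not analysed here. Most barcodes had the depth of free RNA, the RNA released from broken cells that every droplet takes up, and carried hepatocyte markers all the same. Among barcodes without markers of another cell type, the name hepatocyte-like was kept for those from 2 times the modal depth of their library upward, that is 1932 WT barcodes of 5024 or more UMIs and 3806 HKO barcodes of 1589 or more UMIs. The other 20139 WT and 10196 HKO barcodes were called barcodes of free RNA depth. Hepatocyte-like barcodes had a median of 20161 UMIs in WT and 4036.5 in HKO. The 10 hepatocyte markers were all detected in them, summing to 74256 and 60857 CPM (UMIs per 1000000), against 73107 and 63779 in barcodes of free RNA depth. Markers of 7 erythroid genes summed to 736 CPM in WT and 2509 CPM in HKO hepatocyte-like barcodes, and 9 B and plasma cell markers to 8.46 and 64.1 CPM. The part of these differences in the results was not tested. Mir33 itself is not a listed gene, and these counts therefore hold no check of the deletion. Its host gene Srebf2 had 24.9 CPM (23.6 to 26.4) in WT and 19.3 CPM (17.7 to 21.1) in HKO hepatocyte-like barcodes, which does not show whether Mir33 was deleted.

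Summed over all hepatocyte-like barcodes, the RNA of the 10 genes differed little between the genotypes. Some ratios within narrower groups of these barcodes, given below, lay further from 1. The HKO over WT ratios of CPM ran from 0.7996 for Prkab1 to 1.15 for Ppargc1a, 6 above 1 and 4 below. None of the 10 was past 1.5-fold with an interval that excludes 1, as 10.9% of 11611 genes were (those with a mean level of 1 CPM or more). By interval alone, 2 members were higher (Ppargc1a and Mfn2) and 3 were lower (Prkaa2, Prkab1 and Dnm1l), where 24.0% of all genes were higher and 29.0% lower, so these shares lie near the background. The median log2 ratio of the members was 0.02, beside -0.03 over all genes. The members together had 15603 UMIs in WT and 8318 in HKO.

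**Figure D1:**
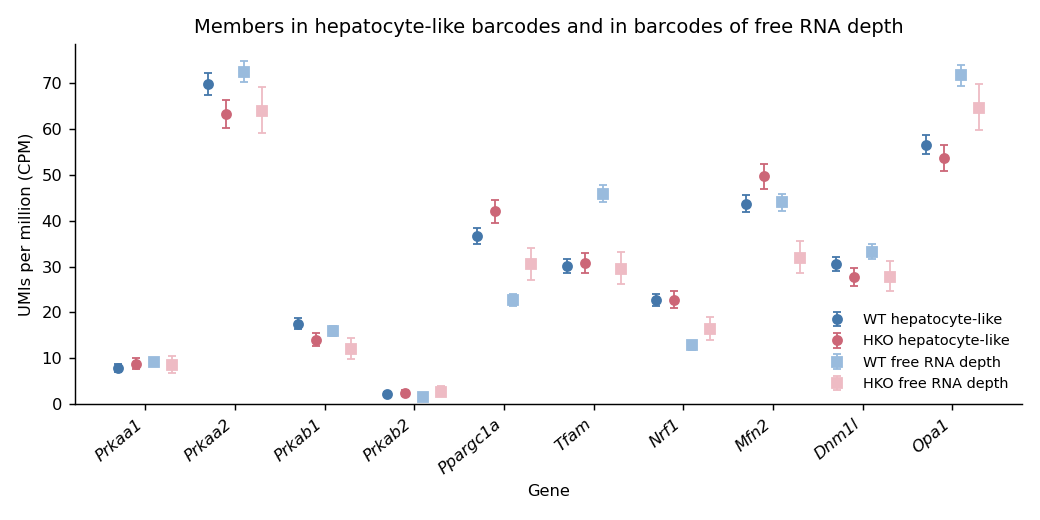
Level in CPM (vertical axis) of the 10 genes in hepatocyte-like barcodes (circles) and barcodes of free RNA depth (squares) of the WT (blue) and HKO (red) library, with exact Poisson 95% intervals. The 2 circles of a gene lie close together, while the squares of Tfam (45.9 and 29.5 CPM) and Mfn2 (44.0 and 32.0 CPM) lie apart.

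The catalytic subunits had ratios on opposite sides of 1. Prkaa1, which encodes AMPK alpha1, was counted 384 times in WT and 232 times in HKO, at 7.81 CPM (7.05 to 8.64) against 8.78 CPM (7.69 to 9.99). The Poisson intervals overlapped, and the ratio was 1.12 (0.951 to 1.33), so a difference was not detectable at this depth. Prkaa2, which encodes alpha2, was counted 3435 and 1672 times, at 69.9 CPM (67.6 to 72.3) against 63.3 CPM (60.3 to 66.4), which puts HKO at 0.906 (0.854 to 0.960) of WT. The difference between the 2 ratios was not tested. Their balance could be compared between the libraries. Prkaa2 made up 89.9% (88.9 to 90.9, Clopper-Pearson) of the UMIs of the pair in WT and 87.8% (86.3 to 89.3) in HKO.

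Of the beta subunits, which hold the complex together and bind glycogen, Prkab1 carried the lowest ratio of the 10. It was counted 861 and 370 times, at 17.5 CPM (16.4 to 18.7) in WT against 14.01 CPM (12.6 to 15.5) in HKO, which is 0.7996 (0.706 to 0.904) of WT. Prkab2 was scarce, with 103 UMIs in WT and 61 in HKO, at 2.10 and 2.31 CPM. Its ratio of 1.10 (0.789 to 1.53) had the widest interval of the set. Prkab2 made up 10.7% (8.81 to 12.8) of the pair in WT and 14.2% (11.002 to 17.8) in HKO.

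Among the biogenesis regulators only Ppargc1a had an interval on one side of 1. It was counted 1799 times in WT and 1110 times in HKO, at 36.6 CPM (34.9 to 38.3) against 42.0 CPM (39.6 to 44.6), so that HKO stood at 1.15 (1.06 to 1.24) of WT. Its UMIs were unevenly spread over barcodes: the 1% of hepatocyte-like barcodes with most of them held 13.2% of its WT and 19.3% of its HKO UMIs. With every barcode weighted equally instead of by its depth, the ratio was 0.985, so its direction depended on the weighting. Tfam was counted 1480 and 812 times, at 30.1 CPM (28.6 to 31.7) against 30.7 CPM (28.7 to 32.9), with a ratio of 1.02 (0.936 to 1.11). For Nrf1 these were 1114 and 602 times, 22.7 CPM (21.4 to 24.04) against 22.8 CPM (21.01 to 24.7), and 1.01 (0.909 to 1.11). The WT and HKO intervals of Tfam and Nrf1 overlapped almost entirely.

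Of the genes of mitochondrial shape, 1 fusion gene was higher and the fission gene lower by interval. Mfn2 was counted 2147 and 1312 times, at 43.7 CPM (41.9 to 45.6) in WT against 49.7 CPM (47.0 to 52.4) in HKO, or 1.14 (1.06 to 1.22) of WT. Dnm1l was counted 1498 and 731 times, at 30.5 CPM (29.0 to 32.1) against 27.7 CPM (25.7 to 29.8), or 0.908 (0.830 to 0.993) of WT. The upper limit of Dnm1l lay close to 1, and the interval included 1 with doublets kept (0.917, 0.839 to 1.0006) or with mitochondrially encoded UMIs left out (0.923, 0.844 to 1.01). Opa1, the other fusion gene, was counted 2782 and 1416 times, at 56.6 CPM (54.5 to 58.8) against 53.6 CPM (50.9 to 56.5). Its ratio of 0.947 (0.888 to 1.01) had an interval that includes 1.

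Depth was then matched, since 2153 of the HKO hepatocyte-like barcodes had under 5000 UMIs and no WT barcode did. The match was by UMIs alone. At 5000 to 10000 UMIs the median mitochondrial share was 7.40% in WT and 14.4% in HKO. The modal depth of the libraries was 2512 UMIs in WT and 794 in HKO, so equal UMIs lie further above it in HKO. The part of these differences in the ratios was not tested. Among barcodes of 5000 to 20000 UMIs the ratio of Ppargc1a was 1.33 (1.17 to 1.51), from 373 and 709 UMIs and 35.3 and 46.9 CPM. Mfn2 was next at 1.28 (1.14 to 1.44), from 41.1 and 52.7 CPM. Prkaa2 stayed lower at 0.898 (0.818 to 0.986). Those were 3 of 10 members with an interval excluding 1, 2 higher and 1 lower, where 22.3% of 11659 genes were higher and 16.9% lower. The ratio of Prkab1 was 0.875 (0.714 to 1.07) in this range and that of Dnm1l was 0.952 (0.821 to 1.10), so both intervals now included 1. Prkaa1 was at 1.18 (0.887 to 1.59), from 78 and 132 UMIs. Malat1, an abundant nuclear RNA, had a ratio of 1.01 (1.00 to 1.02) at this depth.

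Within narrower depths the ratios changed. For Ppargc1a they were 1.52 (1.20 to 1.95) at 5000 to 10000 UMIs, 1.27 (1.09 to 1.48) at 10000 to 20000 UMIs and 0.980 (0.841 to 1.14) at 20000 to 40000 UMIs. In CPM, WT went from 29.1 through 38.1 to 43.1 over these bins while HKO stayed between 42.2 and 48.5, and the 345 WT barcodes of 40000 or more UMIs were back at 31.5 CPM (29.1 to 34.05). In HKO barcodes below 5000 UMIs, Ppargc1a had 28.1 CPM, so its level was lowest in the shallowest bin of each library. For Mfn2 the ratios were 1.37 (1.10 to 1.72), 1.26 (1.10 to 1.46) and 1.04 (0.902 to 1.20), again highest at the shallow end. Nrf1 was at 1.59 (1.16 to 2.19) at 5000 to 10000 UMIs and at 0.763 (0.614 to 0.941) at 20000 to 40000 UMIs, in opposite directions. Prkaa2 was at 1.10 (0.921 to 1.31) in the shallowest bin and at 0.766 (0.675 to 0.867) at 20000 to 40000 UMIs. Tfam was at 0.726 (0.563 to 0.938) at 5000 to 10000 UMIs, and Dnm1l at 0.772 (0.634 to 0.934) at 20000 to 40000 UMIs. Over the same bins the ratio of Malat1 went from 1.95 (1.91 to 1.99) through 0.792 (0.783 to 0.801) to 0.581 (0.573 to 0.589), and its part in the ratios of the members was not tested. Only 7 HKO barcodes had 40000 or more UMIs, too few to compare.

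**Figure D2:**
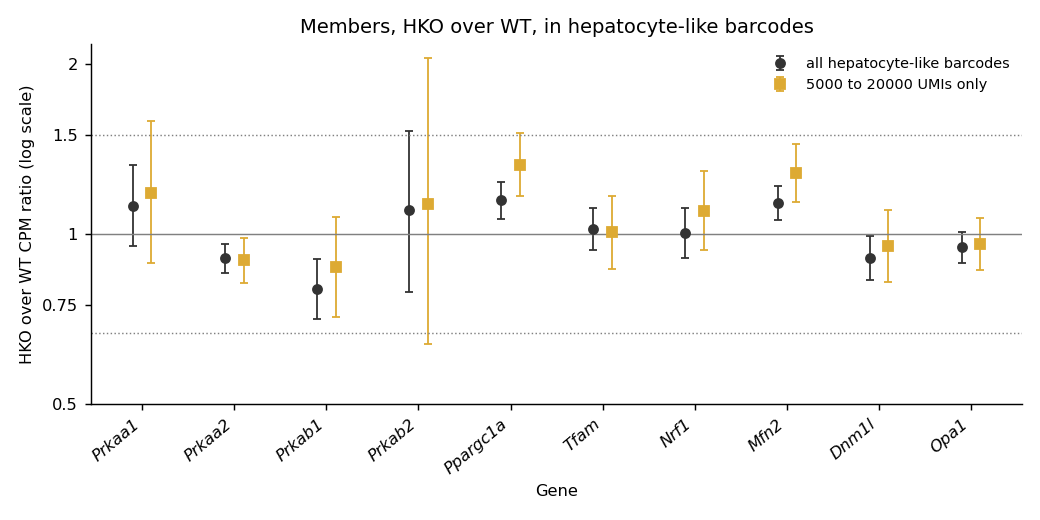
HKO over WT CPM ratio (vertical axis, log scale) of the 10 genes in all hepatocyte-like barcodes (black circles) and in those of 5000 to 20000 UMIs (yellow squares), with exact conditional 95% intervals. The solid line marks 1 and the dotted lines 1.5-fold either way. Ppargc1a reaches 1.33 and Mfn2 1.28 at matched depth, and no point lies past a dotted line.

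How far these counts stand above free RNA was measured in the same libraries. Ppargc1a was higher in hepatocyte-like barcodes than in barcodes of free RNA depth in both, by 1.61-fold (1.498 to 1.74) in WT and 1.38-fold (1.21 to 1.57) in HKO. Nrf1 was higher by 1.78-fold (1.61 to 1.96) and 1.40-fold (1.18 to 1.68). Opa1 was lower in both, at 0.789 (0.751 to 0.829) and 0.830 (0.755 to 0.912). In all, 3 members in WT and 3 in HKO were higher with an interval excluding 1, where 31.3% and 32.9% of all genes were, and 4 in WT and 1 in HKO were lower, where 40.7% and 12.0% of all genes were. Prkaa1 and Prkaa2 gave no excess in hepatocyte-like barcodes, with ratios of 0.847 (0.739 to 0.971) and 0.963 (0.919 to 1.01) in WT and 1.04 (0.807 to 1.35) and 0.989 (0.902 to 1.09) in HKO. Free RNA in these libraries had the hepatocyte profile, so an equal level does not show that the gene was silent in hepatocytes. Mfn2 and Tfam did not go the same way in the libraries. Mfn2 was at 0.992 (0.935 to 1.05) in WT and 1.55 (1.37 to 1.76) in HKO, and Tfam at 0.656 (0.614 to 0.700) in WT and 1.04 (0.909 to 1.19) in HKO. Free RNA itself differed between the libraries: HKO over WT, 3 members were higher in it (Prkab2, Ppargc1a and Nrf1) and 6 lower, where 16.6% of all genes were higher and 41.4% lower. Ppargc1a stood at 1.34 (1.18 to 1.52) in this comparison, which is not below its ratio in hepatocyte-like barcodes, and Tfam at 0.643 (0.568 to 0.727).

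Shares of barcodes with a UMI depend on depth. Before thinning, Ppargc1a gave a UMI in 42.7% of WT and 19.1% of HKO hepatocyte-like barcodes, and Prkaa1 in 16.5% and 5.68%. Each barcode was then thinned to 2000 UMIs, which left out 786 HKO barcodes and no WT barcode (median depth before thinning 20161 in WT and 5792.5 in HKO). Ppargc1a was then found in 6.57% (5.51 to 7.77) of 1932 WT and 7.02% (6.13 to 7.99) of 3020 HKO barcodes, and Mfn2 in 7.30% (6.18 to 8.55) and 9.34% (8.32 to 10.4). The share of Prkaa2 was 14.3% (12.8 to 15.9) in WT and 10.9% (9.84 to 12.1) in HKO. Opa1 and Nrf1 went against their CPM at this depth, and 6 of the 10 shares were higher in HKO, a count that was 2 at 750 UMIs, so no order was read from the shares. In WT barcodes of free RNA depth (median 2609 UMIs), Prkaa2 was found in 13.2% (12.7 to 13.7) and Mfn2 in 8.43% (8.03 to 8.84), so the WT hepatocyte-like share of Mfn2 was not above that of free RNA and the intervals of Prkaa2 overlapped. At 750 UMIs, where HKO barcodes of free RNA depth could be included, Mfn2 was found in 3.63% (3.05 to 4.27) of HKO hepatocyte-like and 2.28% (1.99 to 2.58) of HKO free RNA barcodes. The shares of Ppargc1a were 2.34% (1.88 to 2.87) and 2.20% (1.92 to 2.50).

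The 10 genes were also compared between cell classes within each library. Classes were named from marker genes, and none of the 10 genes was a marker or was among the 2000 variable genes used to cluster. The WT and HKO libraries held 201 and 689 T and NK-like barcodes, 69 and 135 endothelial-like, 82 and 176 macrophage-like, 38 and 114 monocyte and dendritic-like, and 33 and 167 B and plasma-like barcodes. Of the 10 genes, 2 (Nrf1 and Dnm1l) were past 1.5-fold upward in T and NK-like against hepatocyte-like barcodes in both libraries, and 3 (Prkaa2, Ppargc1a and Mfn2) were past it downward. Of 12533 genes measured in both libraries, 37.9% were past that line upward in both and 12.6% downward in both. With free RNA scaled by Alb subtracted, Dnm1l was no longer past it in WT, at 1.45 (1.08 to 1.91) in T and NK-like and 1.52 (0.972 to 2.27) in endothelial-like barcodes. In endothelial-like barcodes 4 members were higher in both (Prkaa1, Prkab2, Nrf1 and Dnm1l) and 2 lower (Prkaa2 and Ppargc1a), beside 32.4% of all genes upward in both and 10.9% downward in both. In macrophage-like barcodes 0 were higher in both and 2 lower (Prkaa2 and Mfn2), beside 26.0% of all genes upward in both and 10.6% downward in both. In HKO alone, Prkaa1 and Nrf1 were higher there, at 3.70 times (2.52 to 5.30) and 2.45 times (1.84 to 3.19) the hepatocyte-like level. Of 12838 genes, 42.1% were at least 1.5-fold higher in that HKO comparison. These barcodes also held free RNA of hepatocytes: the 10 hepatocyte markers summed to 35229 and 18474 CPM in T and NK-like and 26691 and 13964 CPM in endothelial-like barcodes, lower in HKO each time.

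Nrf1 had the highest ratio among T and NK-like barcodes. It was counted 132 times in WT and 220 times in HKO, at 112 CPM (93.7 to 133) and 130.4 CPM (114 to 149). These levels were 4.94 times (4.09 to 5.92) and 5.72 times (4.88 to 6.69) those of hepatocyte-like barcodes of the same library. In endothelial-like barcodes its level was 88.9 CPM in WT and 87.8 CPM in HKO, or 3.92 times (2.86 to 5.27) and 3.85 times (2.78 to 5.22). Dnm1l had 60.2 and 70.6 CPM in T and NK-like barcodes, 1.98 times (1.53 to 2.51) and 2.55 times (2.08 to 3.10) the hepatocyte-like level. After thinning to 2000 UMIs, Nrf1 gave a UMI in 20.2% (14.8 to 26.6) of WT and 17.8% (14.2 to 22.0) of HKO T and NK-like barcodes, against 2.63% (2.41 to 2.87) of WT barcodes of free RNA depth. That step left out 8 WT and 291 HKO T and NK-like barcodes, and the unthinned shares were 39.8% and 25.1%.

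Prkaa2 and Ppargc1a had the opposite pattern, with higher levels in hepatocyte-like barcodes than in any of these 5 classes. The few cholangiocyte-like barcodes, 7 in WT and 24 in HKO, differed. Ppargc1a had 10 and 32 UMIs in them, or 73.4 CPM (35.2 to 134.9) and 116 CPM (79.6 to 164), which is 2.00 times (0.959 to 3.69) and 2.77 times (1.89 to 3.93) the hepatocyte-like level. Prkaa2 had 3 and 21 UMIs there, at 0.315 times (0.0649 to 0.921) and 1.21 times (0.745 to 1.85). In T and NK-like barcodes Prkaa2 had 40 UMIs in WT and 33 in HKO, or 33.9 and 19.6 CPM. The free RNA profile, scaled by the Alb UMIs of these barcodes, would give 41.7 and 31.9 UMIs, about as many as were counted. In endothelial-like barcodes 7 and 9 Prkaa2 UMIs were counted against 14.03 and 7.35 from free RNA. Ppargc1a had 21 and 18 UMIs in T and NK-like barcodes (17.8 and 10.7 CPM) against 13.04 and 15.2 from free RNA, and 4 and 2 UMIs in endothelial-like barcodes against 4.39 and 3.50. Its level was 0.487 (0.300 to 0.746) and 0.254 (0.150 to 0.403) times the hepatocyte-like level in T and NK-like barcodes. The level of Mfn2 there was 23.8 CPM in WT and 20.8 CPM in HKO, 0.544 (0.360 to 0.788) and 0.418 (0.290 to 0.584) times the hepatocyte-like level.

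Prkaa1 and Prkab2, for alpha1 and beta2, were higher in endothelial-like and in monocyte and dendritic-like than in hepatocyte-like barcodes. In endothelial-like barcodes Prkaa1 had 19 UMIs in WT and 15 in HKO, or 36.7 CPM (22.1 to 57.4) and 29.3 CPM (16.4 to 48.3). This was 4.70 times (2.80 to 7.44) and 3.33 times (1.83 to 5.61) the hepatocyte-like level, and free RNA would give 1.78 and 0.970 UMIs. Prkab2 had 7 and 8 UMIs there, 6.46 times (2.53 to 13.8) and 6.76 times (2.79 to 14.2) the hepatocyte-like level. In monocyte and dendritic-like barcodes Prkab2 had 6 UMIs in WT and 15 in HKO, or 16.9 CPM (6.21 to 36.9) and 32.3 CPM (18.1 to 53.2). The balance of each pair differed with the class. Prkaa2 made up 26.9% (11.6 to 47.8) of the alpha pair in WT endothelial-like and 37.5% (18.8 to 59.4) in HKO endothelial-like barcodes, intervals that lie below those of hepatocyte-like barcodes. Prkab2 made up 53.8% (25.1 to 80.8) and 50.0% (24.7 to 75.3) of the beta pair there, and 66.7% (29.9 to 92.5) in WT monocyte and dendritic-like barcodes. In T and NK-like barcodes Prkaa2 made up 71.4% (57.8 to 82.7) of its pair in WT and 43.4% (32.1 to 55.3) in HKO.

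**Figure D3:**
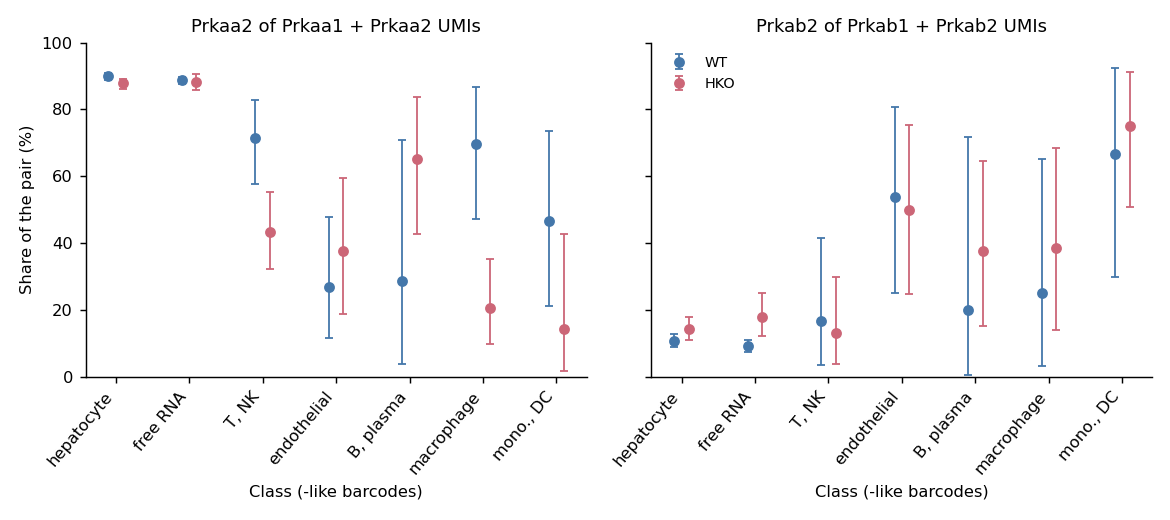
Share of Prkaa2 among Prkaa1 and Prkaa2 UMIs (left) and of Prkab2 among Prkab1 and Prkab2 UMIs (right), in percent, by class and library, with Clopper-Pearson 95% intervals. WT is blue and HKO red. Hepatocyte-like and free RNA barcodes sit near 90% for Prkaa2, and endothelial-like barcodes lie at 26.9% and 37.5%.

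**Figure D4:**
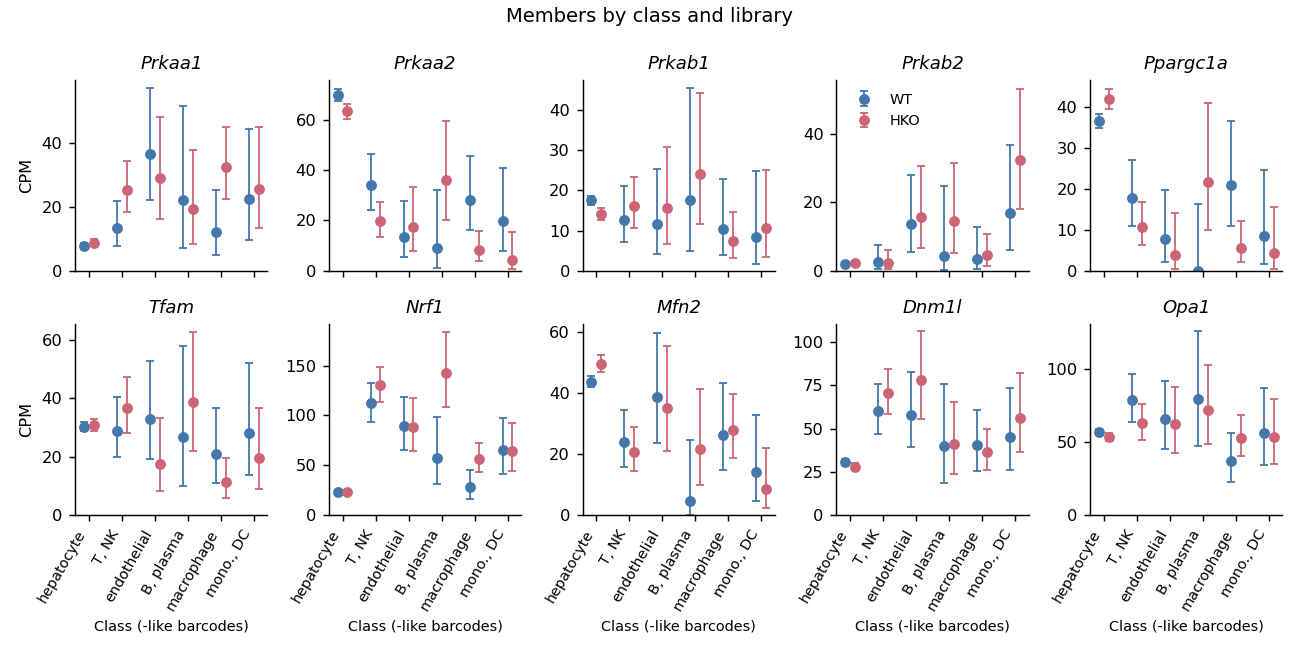
Level in CPM (vertical axes starting at 0) of each of the 10 genes by class in WT (blue) and HKO (red), with exact Poisson 95% intervals. Among the classes shown, Nrf1 is lowest in hepatocyte-like barcodes, at 22.7 and 22.8 CPM, while Prkaa2 is highest there, at 69.9 and 63.3 CPM.

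The genotypes were also compared within the other classes. Albumin-Cre is used to act in hepatocytes, and whether it acted in these classes cannot be checked in these counts. Of the 10 genes, 1 was at least 1.5-fold higher (Prkaa1) and 1 lower (Prkaa2) in T and NK-like barcodes with an interval excluding 1, against 7.23% and 10.9% of 11470 genes. Prkaa1 was counted 16 times in WT and 43 times in HKO, at 13.6 CPM (7.76 to 22.04) against 25.5 CPM (18.5 to 34.3), or 1.88 (1.04 to 3.57) of WT. For Prkaa2 the ratio was 0.577 (0.352 to 0.938), and the hepatocyte markers of these barcodes were lower in HKO too. In macrophage-like barcodes Prkaa1 was counted 7 and 35 times, at 12.3 against 32.5 CPM, or 2.65 (1.16 to 7.08) of WT. Nrf1 was counted 16 and 60 times there, at 28.0 against 55.8 CPM, or 1.99 (1.13 to 3.70) of WT. These were 2 of 10 members at least 1.5-fold higher, and Prkaa2 and Ppargc1a were 2 of 10 lower, against 15.4% and 13.2% of 9989 genes. Prkaa2 was counted 16 and 9 times, with a ratio of 0.298 (0.116 to 0.717), where free RNA would give 18.5 and 9.38 UMIs. The ratio of Ppargc1a was 0.265 (0.0817 to 0.764), from 12 and 6 UMIs, and 1 WT barcode held 7 of the 12. Without the barcode with most UMIs in each library it was 0.416 (0.0826 to 1.93). In endothelial-like barcodes, none of the 10 had an interval excluding 1, where 10.2% of 9238 genes were higher and 9.18% lower, and the same held in monocyte and dendritic-like barcodes, where 5.98% of 8451 genes were higher and 10.4% lower. In B and plasma-like barcodes 2 of 10 were at least 1.5-fold higher and 0 lower, beside 10.7% and 8.12% of 7312 genes. Nrf1 was counted 13 times in WT and 59 times in HKO there, at 57.6 CPM (30.7 to 98.5) against 142 CPM (108 to 183.5), or 2.47 (1.34 to 4.91) of WT. Ppargc1a was the other, with no UMI in WT and 9 in HKO, of which free RNA would give 3.80. Without the HKO barcode with most UMIs, which held 1, its interval began at 0.908 and the call was lost. In sums over barcodes, fewer RNA molecules per cell and fewer cells of a subtype cannot be told apart.

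Position along the liver lobule was approximated by a score, since metabolism differs between the portal and the central end. The score was the mean of 10 pericentral genes minus that of 10 periportal genes, and hepatocyte-like barcodes of at least 5000 UMIs were split into 3 equal parts in each library, called periportal, middle and pericentral. Oat and Pck1, which were not in the score, differed in the direction known for them: Oat was 14.3-fold higher in the pericentral part of WT and 38.8-fold in HKO, and Pck1 was at 0.547 and 0.384. The parts are ranges, and 320 of 1932 WT and 326 of 1653 HKO barcodes lay within 0.1 SD of a border. Of the 10 genes, 2 had an interval excluding 1 in the same direction in both libraries. Mfn2 was higher in the pericentral part, at 51.7 against 39.7 CPM in WT (ratio 1.30, 1.18 to 1.44) and 65.8 against 44.5 CPM in HKO (ratio 1.48, 1.28 to 1.70). Prkab1 was lower there, at 14.9 against 18.7 CPM in WT (ratio 0.793, 0.669 to 0.9403) and 11.1 against 15.9 CPM in HKO (ratio 0.699, 0.519 to 0.937). Of all genes, 20.1% were higher in the pericentral part with an interval excluding 1 in both libraries, and 4.44% were lower in both. When the parts were drawn only among barcodes of 5000 to 20000 UMIs, no member passed in both libraries. Mfn2 was then at 1.05 (0.841 to 1.31) in WT and 1.35 (1.15 to 1.60) in HKO, and Prkab1 at 0.608 (0.408 to 0.894) and 0.717 (0.499 to 1.02).

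Ppargc1a was highest in the periportal part in WT, and a periportal excess was not detectable in HKO. In WT it had 47.9 CPM in the periportal, 28.8 in the middle and 32.6 in the pericentral part, a pericentral over periportal ratio of 0.679 (0.608 to 0.759). In HKO it had 44.8, 53.6 and 40.1 CPM, with a pericentral over periportal ratio of 0.896 (0.762 to 1.05). The same values among barcodes of 5000 to 20000 UMIs were 0.532 (0.408 to 0.689) in WT and 0.978 (0.809 to 1.18) in HKO. The parts drawn at 5000 or more UMIs also differed in median mitochondrial share. From periportal to pericentral it was 15.04%, 7.43% and 10.7% in WT, and 14.3%, 13.6% and 12.2% in HKO. Ppargc1a was higher at a high mitochondrial share in both libraries, as given below. The role of mitochondrial share in the ratios of this paragraph was not tested. Nrf1 went opposite ways, at 0.828 (0.717 to 0.956) in WT and 1.29 (1.04 to 1.62) in HKO. Malat1 was at 0.661 (0.655 to 0.667) in WT and 1.13 (1.12 to 1.15) in HKO in the same contrast, and its part was not tested. Prkaa2 was at 0.963 (0.888 to 1.04) in WT and 1.20 (1.06 to 1.37) in HKO, and Dnm1l at 0.826 (0.727 to 0.936) and 1.08 (0.881 to 1.33). The differences between the libraries were not tested. Prkaa1, Tfam and Opa1 had intervals that include 1 in both, and Prkab2 was at 2.19 (1.34 to 3.68) in WT, from 54 and 25 UMIs, and 1.30 (0.638 to 2.65) in HKO. Among barcodes of 5000 to 20000 UMIs, Prkaa2 was still at 1.26 (1.09 to 1.47) in HKO. The call was lost there for Nrf1 in HKO (1.21, 0.930 to 1.57; WT 0.730, 0.532 to 0.997), for Dnm1l in WT (0.789, 0.595 to 1.04) and for Prkab2 in WT (0.980, 0.272 to 3.40), and Tfam in WT gained one (1.33, 1.01 to 1.75). HKO over WT, Ppargc1a was at 0.934 (0.822 to 1.06) in the periportal part. It was at 1.86 (1.61 to 2.16) in the middle and 1.23 (1.06 to 1.43) in the pericentral part. With parts drawn at 5000 to 20000 UMIs, these ratios were 0.899 (0.740 to 1.09), 1.88 (1.48 to 2.41) and 1.65 (1.28 to 2.14). The share of all genes was not counted for them.

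**Figure D5:**
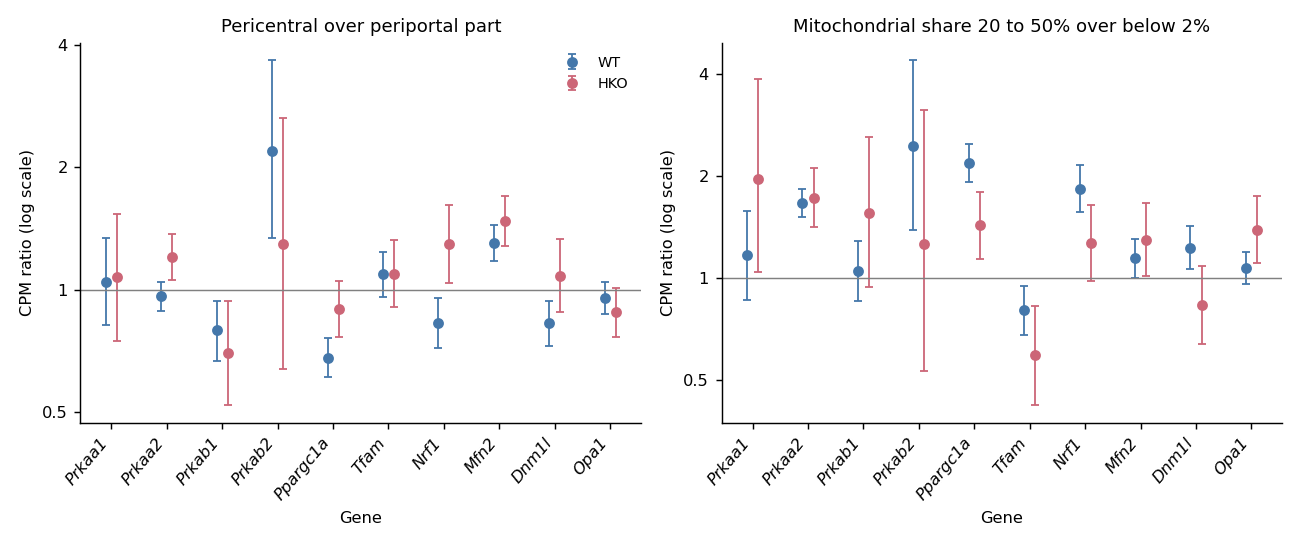
CPM ratios (log scale) of the 10 genes within each library, pericentral over periportal part (left) and mitochondrial share of 20 to 50% over below 2% (right, with mitochondrially encoded UMIs left out of the total), in hepatocyte-like barcodes of at least 5000 UMIs. WT is blue and HKO red, with exact 95% intervals around each point and a line at 1. Mfn2 lies above 1 on the left in both libraries, and Tfam lies below 1 on the right in both, at 0.803 and 0.592.

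The 10 genes were also set against the mitochondrial share of the UMIs of a barcode within each library. Levels here are CPM of the UMIs outside the mitochondrially encoded genes. Between barcodes with 20 to 50% and those with under 2% mitochondrial UMIs, 4 members differed in the same direction in both libraries with intervals excluding 1. Prkaa2 was higher, at 108.8 against 65.4 CPM in WT (ratio 1.66, 1.51 to 1.83) and 106.4 against 61.6 CPM in HKO (ratio 1.73, 1.41 to 2.12). Ppargc1a was higher, at 69.2 against 31.7 CPM in WT (ratio 2.19, 1.92 to 2.48) and 73.8 against 51.6 CPM in HKO (ratio 1.43, 1.14 to 1.80). Mfn2 was higher by 1.14 (1.00 to 1.30) and 1.30 (1.01 to 1.67). Tfam, whose protein packages the mitochondrial genome, was the member that was lower, at 26.1 against 32.5 CPM in WT (ratio 0.803, 0.677 to 0.950) and 21.7 against 36.6 CPM in HKO (ratio 0.592, 0.421 to 0.829). Of all genes, 23.9% were higher in this contrast in both libraries and 15.3% lower in both. In WT alone, Prkab2 (2.45), Nrf1 (1.84) and Dnm1l (1.23) were higher with an interval excluding 1. In HKO alone, Prkaa1 (1.96) and Opa1 (1.39) were, and Prkab1 had intervals that include 1. Of all genes, 39.9% were higher in WT and 30.4% in HKO. Alb was higher by 1.64 in WT and 4.18 in HKO, and Malat1 was at 1.36 and 0.633, so the low-share barcodes of the libraries differed in other RNA too and their part was not tested.

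Other genes of the pathway were then described in hepatocyte-like barcodes, from lists drawn up by function. Of all genes, 5.27% were at least 1.5-fold higher and 5.60% lower, so a count of 0 or 1 in lists of this size lies near the background. None of the 2 measured AMPK gamma subunits and none of 7 upstream kinases and adaptors was past 1.5-fold. Stk11, which encodes the AMPK kinase LKB1, was at 39.1 CPM in WT and 34.5 in HKO, or 0.881 (0.814 to 0.954) of WT. At 5000 to 20000 UMIs Stk11 was at 0.932 (0.816 to 1.06), an interval that includes 1. Of 16 genes for AMPK substrates, 0 were past 1.5-fold higher and 1 was lower. That gene was Acaca, which encodes acetyl-CoA carboxylase 1 of fatty acid synthesis, with 172.6 and 75.1 CPM and a ratio of 0.435 (0.415 to 0.457). It was at 0.445 (0.414 to 0.478) at 5000 to 20000 UMIs. Ulk1, a kinase that starts autophagy, was at 0.731 (0.673 to 0.792), and Casp6, the caspase that AMPK phosphorylates, at 24.9 and 31.3 CPM, with a ratio between 1.15 and 1.37.

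Of 10 genes for sirtuins and NAD synthesis, 1 was past 1.5-fold higher and 0 lower. This was Nampt, the rate-limiting enzyme of NAD salvage, with 50.8 and 77.7 CPM and a ratio of 1.53 (1.44 to 1.62), or 1.43 (1.30 to 1.59) at matched depth. Sirt3, the main mitochondrial deacetylase, had a ratio of 1.18 (1.12 to 1.252). Sirt1, the deacetylase that activates PGC-1alpha, was at 0.890 (0.775 to 1.02), and Sirt2, Sirt5 and Sirt7 were at 1.04 (0.945 to 1.13), 0.985 (0.858 to 1.13) and 1.10 (0.996 to 1.22). Sirt6 was scarce, with 87 and 32 UMIs and a ratio of 0.684 (0.441 to 1.04). None of the 10 PGC-1 partners and relatives was past 1.5-fold. At 5000 to 20000 UMIs, where 7.13% of all genes were at least 1.5-fold higher and 5.31% lower, Ppara, a nuclear receptor of fatty acid oxidation, was past it at 1.52 (1.46 to 1.58) and Crtc2, a CREB coactivator, at 0.652 (0.489 to 0.868), after 1.46 and 0.694 over all depths.

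Genes of mitochondrial DNA, shape and turnover were described in the same way. Of 11 genes for replication and transcription of mitochondrial DNA, 1 was lower, Mterf3, a negative regulator of mitochondrial transcription, at 13.8 and 8.78 CPM (ratio 0.636, 0.545 to 0.739). At 5000 to 20000 UMIs Mterf3 was at 0.709 (0.554 to 0.909) and no longer past 1.5-fold, while Tfb2m, a mitochondrial transcription factor, was at 1.54 (1.31 to 1.81) and Polrmt, the mitochondrial RNA polymerase, at 0.599 (0.431 to 0.8305). None of 8 measured genes of the fusion machinery and none of 8 of the fission machinery was past 1.5-fold. Mfn1, the paralog of Mfn2, was at 0.980 (0.894 to 1.07). Fis1, an outer-membrane fission factor, was at 0.908 (0.861 to 0.958), and at 1.12 (1.02 to 1.23) at 5000 to 20000 UMIs, so its direction changed in that range. Of 9 mitophagy genes 2 were higher, both receptors on the outer membrane. Bnip3 was at 146.9 and 230.2 CPM (ratio 1.57, 1.51 to 1.62) and Bnip3l at 65.5 and 101.7 CPM (ratio 1.55, 1.47 to 1.63), and at matched depth they were at 1.59 and 1.60.

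Hepatic genes linked to PGC-1alpha differed in both directions. Most of the list is known to be induced by it, whereas Fgf21 has been described as repressed. Of 10 such genes, 0 were past 1.5-fold higher and 4 were lower, beside the 5.27% and 5.60% of all genes given above. By interval alone 5 were higher and 5 lower, beside 24.0% and 29.0% of all genes. Lpin1, a phosphatidate phosphatase, was at 180.1 and 80.6 CPM (ratio 0.448, 0.427 to 0.470). The hormone gene Fgf21 was at 0.498 (0.435 to 0.569), G6pc, the last enzyme of glucose release, at 0.501 (0.489 to 0.513), and Angptl4, an inhibitor of lipoprotein lipase, at 0.541 (0.511 to 0.571). The others lay between 0.922 (0.892 to 0.953) for Sod2, which detoxifies superoxide in mitochondria, and 1.38 (1.34 to 1.42) for Cpt1a, which admits fatty acids to mitochondria. These genes answer to several regulators, and the values describe RNA levels, not the activity of PGC-1alpha or AMPK.

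The genes most like Prkaa1 and Ppargc1a over 10 points, 5 classes in each library, were found by Pearson's r of log2(CPM + 1) among 9563 genes. Nkap (0.969), Peg13 (0.961) and Foxj2 (0.958) were most like Prkaa1. For Ppargc1a they were Ndufa13 (0.964), Slc35d2 (0.963) and Uqcrc1 (0.955). The points share libraries and depth, many genes were compared, and the values only describe likeness.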

How the data were processed

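The genotype groups WT and HKO, of 1 library each, were compared. The deposited values are UMI counts per gene and barcode, which the authors made with Cell Ranger, version 7.1.0 per the file headers. The submitters' processing notes also name mm10, R 3.0 and Seurat 3. The annotation, the intron option and the choice of barcodes are not given in the sources used here. Kept barcodes held 500 or more UMIs, 300 or more genes and no more than 50% mitochondrial UMIs (29620 WT, 18247 HKO). Scrublet, run in Scanpy 1.11.5, marked 0 barcodes by its automatic threshold, so the top-scoring barcodes were left out at the rate usual for this platform, which grows with the number of barcodes (7019 WT, 2664 HKO). Barcodes were clustered on 2000 variable genes and 30 principal components (Leiden resolution 1, leidenalg 0.10.2) and named from marker genes.

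UMIs were summed per class and library and scaled to CPM. Ratios carry exact conditional binomial intervals, levels exact Poisson intervals and shares Clopper-Pearson intervals (scipy 1.17.1, numpy 2.4.6, pandas 2.3.3, Python 3.11.15). UMIs were counting units, and intervals cover counting error only. A gene counted as past 1.5-fold when its interval also excluded 1. All 10 genes were named in the comparison of the genotypes in hepatocyte-like barcodes, and in other comparisons some members were left unnamed. Pathway genes were named when past 1.5-fold, at most 6 per list, or when the study had measured them as proteins. Sod2, Cpt1a, Ppara, Crtc2, Tfb2m, Polrmt, mt-Nd1 and mt-Nd6 fall outside this rule and were named after their values were seen. The 3 genes most like Prkaa1 and Ppargc1a were also named. The 10 genes and the lists were chosen with earlier results of these data known. Alternatives varied depth limits, weighting, scaling, mitochondrial filter, doublets, free RNA, fold and background, and the interval code was tested on simulated data. Seed matches used 3'UTRs of GENCODE M21 on GRCm38 and microRNAs from RefSeq. The figures were drawn with matplotlib 3.10.9.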

Additional observations from a re-analysis of the deposited data

Results flagged for a closer look

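The HKO over WT ratio of Ppargc1a was 1.15 in hepatocyte-like barcodes, 0.265 in macrophage-like barcodes and at least 1.63 in B and plasma-like barcodes, where WT had no UMI and HKO had 9 and the ratio was taken against 3 UMIs in WT. The exact interval of this last ratio began at 1.07, and free RNA would give 3.80 of the 9 UMIs. These classes went in different directions, the difference was not tested, and 7 of the 12 WT macrophage-like UMIs came from 1 barcode.

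The pericentral over periportal ratio of Nrf1 was 0.828 in WT and 1.29 in HKO, on opposite sides of 1, and the difference was not tested. With the parts drawn at 5000 to 20000 UMIs the HKO ratio was 1.21 (0.930 to 1.57), an interval that includes 1. The HKO over WT ratio of Nrf1 in hepatocyte-like barcodes was 1.59 at 5000 to 10000 UMIs and 0.763 at 20000 to 40000 UMIs, also on opposite sides of 1 and also not tested.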

How the results depend on the processing

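No paired analysis was possible because each genotype had 1 library. Over 11 alternatives for the 10 ratios in hepatocyte-like barcodes, 95 of 110 values stayed within the interval of the reported ratio, and 6 lay on the other side of 1. With every barcode weighted equally, Ppargc1a went to 0.985, Nrf1 to 0.917 and Prkab2 to 0.993, so that 3 members instead of 6 had a ratio above 1. Nrf1 was also below 1 with at most 20% mitochondrial UMIs (0.974) and with free RNA subtracted at 10% (0.989), and Tfam with no depth minimum (0.796). The ratio of Ppargc1a ran from 0.985 to 1.33, that of Tfam from 0.796 to 1.14, that of Nrf1 from 0.917 to 1.19 and that of Prkab2 from 0.993 to 2.40, while Prkaa1, Prkaa2, Prkab1, Mfn2 and Dnm1l kept their direction in all of them. Thinning to 2000 UMIs is a random draw: the ratio of Opa1 was 0.841 in 1 draw, and the draw behind the shares gave 48.7 CPM in WT and 53.6 CPM in HKO, the opposite direction. The intervals of all called members included 1 in the first draw, that of Mfn2 also did with no depth minimum, that of Prkab1 at 5000 to 20000 UMIs, and that of Dnm1l in 4 other settings. The median log2 ratio ran from -0.07 to 0.07. A lower fold threshold called 1 member, Prkab1, in place of 0, beside 27.6% of all genes, and none of the 11 alternatives for the ratios called any. Thinning to 750 UMIs, described below, was not put to this rule. With free RNA scaled by Alb subtracted, 1 member (Nrf1) instead of 2 was at least 1.5-fold higher in T and NK-like barcodes of both libraries. With parts of the lobule drawn at 5000 to 20000 UMIs, 0 instead of 2 members passed in both libraries. Thinned to 750 UMIs, an alternative added after seeing the data, 2 instead of 6 shares were higher in HKO, and the level of Prkaa1 was lower in HKO, at 4.204 against 10.4 CPM. The causes were not tested, and the last 2 settings leave fewer UMIs. Differences between animals could not be estimated, and depth limits Prkab2 and the small classes most.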

Other observations

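The 13 mitochondrially encoded protein genes, whose transcription depends on TFAM, were measured in hepatocyte-like barcodes. HKO over WT, 11 were higher and 2 lower with an interval excluding 1, beside 24.0% and 29.0% of all genes, and none was past 1.5-fold. The highest ratio was that of mt-Nd6, at 1.45 (1.41 to 1.49), and the lowest that of mt-Nd1, at 0.941 (0.935 to 0.946). The median log2 ratio was 0.12, and among barcodes of 5000 to 20000 UMIs it was -0.24, so the direction of the list changed when depth was matched. At that depth mt-Nd1 was at 0.803 (0.796 to 0.8096) and mt-Nd6 at 1.01 (0.965 to 1.05).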
